A study of Homo sapiens with 10 samples.

Results

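Colony BR8, a line grown from TPC-1 thyroid cancer cells under the RET inhibitor BLU667, was compared with parental TPC-1 cells that had met the same drug for a single day. The genes described are those with a level of at least 1 FPKM (a read count scaled by gene length and library depth) in 2 or more of the 4 libraries of these 2 groups. This held for 12795 of 58735 listed genes. TPC-1 is a papillary thyroid carcinoma line with a CCDC6-RET fusion, and all groups derive from it. BR8 was kept in 5 µM BLU667, for more than 50 days by the sample labels and for more than 5 months by the series design. The acute group, called BLU667 here, is parental cells in 5 µM BLU667 for 24 h. Set beside them are the colonies BR10 and BR16, grown in the same way as BR8, and parental cells in the solvent DMSO for 24 h. Each of the 5 groups has 2 libraries, described as biological replicates. BR8 is a single colony, so that long exposure and the identity of this colony cannot be told apart. The p-values rest on the spread between libraries of the same group, pooled over the 5 groups and drawn towards that of other genes.

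RET is a receptor tyrosine kinase, and its fusion to CCDC6 drives papillary thyroid carcinoma by signalling without ligand through the RAS, RAF, MEK and ERK kinases and through phosphoinositide 3-kinase. BLU667 (pralsetinib) blocks the RET kinase. ERK signalling raises cyclin D1, whose kinases CDK4 and CDK6 inactivate the retinoblastoma protein and free the E2F factors that turn on replication genes, and the factors MYBL2 and FOXM1 then drive mitotic genes. The comparison asks which transcripts of a colony that grows in the drug differ from those of cells newly held by it.

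Reads in genes numbered between 15243703 and 21904245 per library over the series. Log2 levels of the 2 BR8 libraries correlated at r = 0.985 across genes and those of the 2 BLU667 libraries at 0.982, where genes are not independent replicates. Reads of mitochondrial genes made up 3.64% and 3.23% of the BR8 libraries, against 6.49% and 4.44% of the BLU667 libraries. Differences followed the GC content of transcripts only weakly for BR8 minus BLU667 (Spearman rho -0.117 across genes), but strongly for BR8 minus BR16 (-0.606). Of 15 thyroid follicular markers, 4 were members (PAX8, FOXE1, HHEX and GLIS3), whereas thyroglobulin TG was not and NKX2-1 was at 0 in all 4 libraries. No immune, endothelial or erythroid marker was a member. Of 9 immune markers, 7 were at 0 in all 4 libraries, and the list summed to 0.0947 and 0.0629 FPKM in BR8 and 0.0301 and 0.130 FPKM in BLU667.

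Of the members, 10458 reached 1 FPKM in all 4 libraries, 668 in both BR8 libraries only, and 750 in both BLU667 libraries only. By type, 10719 were protein-coding. A member just inside the limit, the lactate dehydrogenase gene LDHD, had 0.0241 and 0.0755 FPKM in BR8 and 1.69 and 1.00 FPKM in BLU667. The gene RTTN, just outside it, had 1.15 and 0.998 FPKM in BR8 and 0.732 and 0.715 FPKM in BLU667. Differences below are log2 changes, BR8 minus BLU667 unless stated, on the log2(FPKM + 1) scale, ± SE of a limma fit over all 10 libraries, and understate changes of low genes. A gene was called where its two-sided p, adjusted by the Benjamini-Hochberg method over 13927 tested genes, was below 0.05. A dagger marks a gene that overlaps another one: strand was not kept in these libraries, and reads of such a pair may be mixed. Genes with near-identical copies, among them metallothioneins, HLA, ANXA8L1, ribosomal protein and several glycolytic genes, are uncertain as well. In RNA from many cells, a change in the share of cells that express a gene and a change per cell cannot be told apart.

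In limma, 7794 of the 12795 members (60.9%) were called, 4054 higher (31.7%) and 3740 lower (29.2%) in BR8. Called differences of at least 2-fold were 1289 rises (10.1%) and 1123 falls (8.78%). The 2 BR8 and 2 BLU667 libraries did not overlap for 10547 members (82.4%), so that a gene whose libraries do not overlap was the usual case. The median log2 change over all members was 0.00 and the median SE 0.12. Counts and medians of the gene lists below are to be read against these shares.

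**Figure D1:**
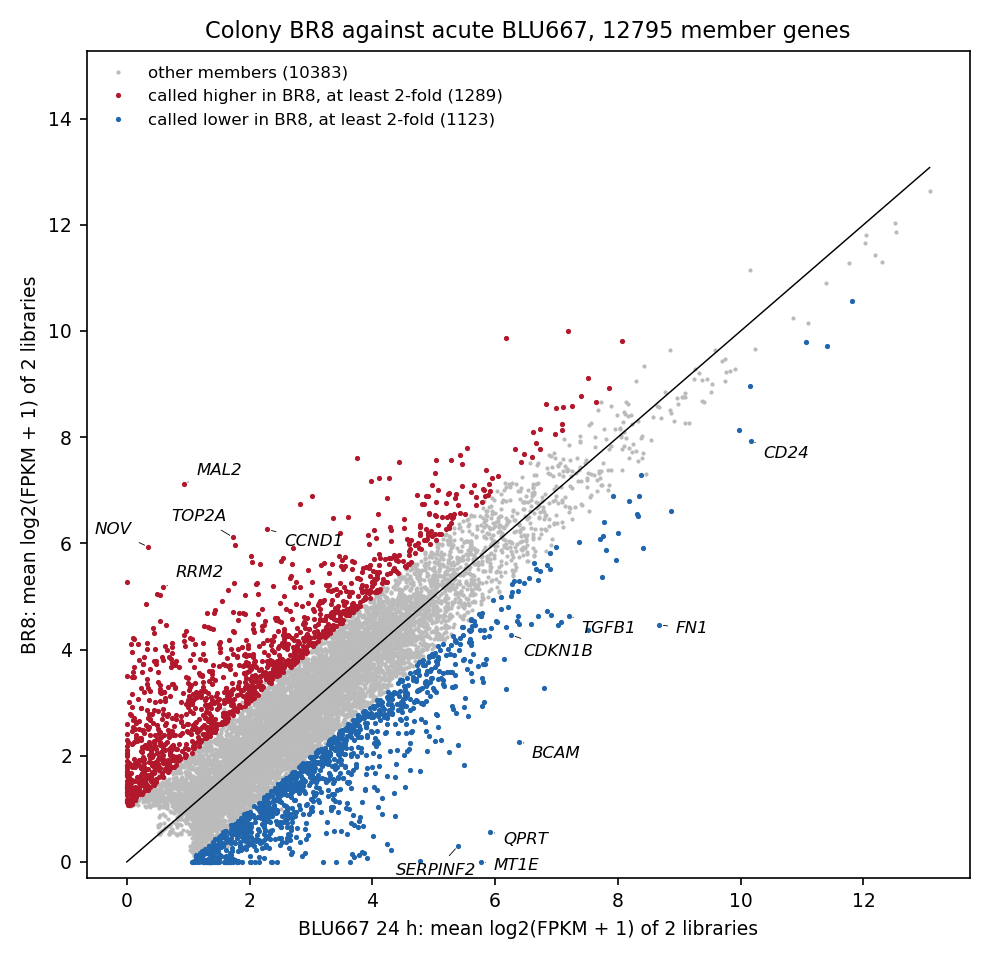
Each point is 1 of 12795 member genes, with its mean log2(FPKM + 1) over 2 BR8 libraries on the vertical axis and over 2 BLU667 libraries on the horizontal axis; the line marks equal levels. Red points (1289) and blue points (1123) were called and at least 2-fold higher or lower in BR8, and MAL2, NOV and RRM2 lie far above the line where FN1, QPRT and MT1E lie far below it.

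RET itself, the kinase gene of the fusion (chromosome 10, 43077027 to 43130351, plus strand, GRCh38), had 7.24 and 7.04 FPKM in BR8, against 8.52 and 9.34 FPKM in BLU667 and 6.90 and 6.92 FPKM in DMSO. The BR8 libraries thus lay slightly below both BLU667 libraries and slightly above both DMSO libraries. RET was called lower in BR8 than in BLU667 (-0.29 ± 0.073, limma adjusted p = 0.00988). That call was lost without BR8 replicate 2 (adjusted p = 0.0552) or without BLU667 replicate 2 (0.0631). Against DMSO, RET in BR8 was not called (0.04 ± 0.073, adjusted p = 0.658). CCDC6, the fusion partner, had 0.124 and 0.0808 FPKM in BR8 and 0.340 and 0.368 FPKM in BLU667 and so was no member. TERT, the catalytic subunit of telomerase, was no member either, at 0.284 and 0.116 FPKM in BR8, 0.0494 and 0.163 FPKM in BLU667 and 1.59 and 1.498 FPKM in DMSO. A level per gene cannot tell transcripts of the fusion from those of the intact genes.

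The highest list medians were those of cell-cycle genes. Every listed member of DNA replication (33 of 33) and of mitosis (30 of 30) was called higher in BR8, with median changes of 2.04 and 2.96, against 0.00 over all members. Changes of single genes ran from 0.63 to 4.58 in the replication list and from 1.57 to 4.38 in the mitosis list. RRM2, the ribonucleotide reductase subunit that makes DNA precursors, had 36.0 and 34.1 FPKM in BR8, 0.534 and 0.476 FPKM in BLU667 and 39.0 and 54.9 FPKM in DMSO (4.58 ± 0.14, limma adjusted p = 2.42e-07). BR8 thus stood far above acute BLU667 and below both DMSO libraries. CDC6, which licenses replication origins, had 15.7 and 17.03 FPKM in BR8 and 0.225 and 0.280 FPKM in BLU667. RFC2, a subunit of the replication clamp loader, lies in a window of chromosome 7 whose genes had a median change of 1.04 (described at the end). It had 47.8 and 50.2 FPKM in BR8, 3.06 and 3.15 FPKM in BLU667 and 23.7 and 24.3 FPKM in DMSO. Both BR8 libraries thus lay above both DMSO libraries too (1.00 ± 0.068 against DMSO, limma adjusted p = 1.12e-05). The other large rises in this list were the flap endonuclease FEN1† (3.46 ± 0.14) and, outside the lists, the histone chaperone ASF1B (4.56 ± 0.11), the replication licensing regulator DTL (4.01 ± 0.13), the protease FAM111B (4.12 ± 0.13) and the zinc finger factor ZNF367 (3.98 ± 0.10).

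Among mitotic genes, TOP2A, the topoisomerase that untangles sister chromatids, had 69.0 and 67.2 FPKM in BR8, 1.47 and 3.50 FPKM in BLU667 and 123 and 163 FPKM in DMSO (4.38 ± 0.25, limma adjusted p = 3.24e-06). CDK1, the kinase of mitotic entry, had 59.7 and 63.3 FPKM in BR8, 2.24 and 2.59 FPKM in BLU667 and 58.0 and 73.6 FPKM in DMSO (4.19 ± 0.11). The scaffold of the cleavage furrow ANLN† had 122 and 114 FPKM in BR8 and 6.49 and 7.68 FPKM in BLU667 (3.89 ± 0.16). Cyclin A2, CCNA2†, had 37.3 and 36.8 FPKM in BR8 and 2.48 and 2.26 FPKM in BLU667 (3.50 ± 0.12). In each of these 4 genes every BR8 library lay far above every BLU667 library. BR8 libraries overlapped those of DMSO for CDK1 and ANLN and lay below both DMSO libraries for TOP2A and CCNA2.

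Because mitotic genes moved together, their promoters were read from RefSeq (GRCh38.p14), each window running from 250 bases before to 50 bases after a gene start. The motif TTTGAA, the core of the cell-cycle homology region bound by the MuvB complex, was searched on both strands (so also as TTCAAA), and CCAAT, the box bound by NF-Y, likewise (also as ATTGG). RefSeq windows were found for 23 of the 30 mitotic genes. TTTGAA lay in 18 of their 29 windows (62.1%), against 15.2% of all 35116 promoter windows, and CCAAT in 22 (75.9%), against 34.6%. Both motifs stood in 48.3% of mitotic windows and in 5.90% of all. The 37 windows of replication genes held TTTGAA in 2.70% and CCAAT in 59.5%. A match is a description of letters and not a binding site. The windows of 3 of the mitotic genes above are printed 5′ to 3′ on the strand of the gene, with matches to either motif in capitals, to show a promoter with both motifs, one with TTTGAA only and one with CCAAT only.
TOP2A (chr17:40417847-40418146, minus strand): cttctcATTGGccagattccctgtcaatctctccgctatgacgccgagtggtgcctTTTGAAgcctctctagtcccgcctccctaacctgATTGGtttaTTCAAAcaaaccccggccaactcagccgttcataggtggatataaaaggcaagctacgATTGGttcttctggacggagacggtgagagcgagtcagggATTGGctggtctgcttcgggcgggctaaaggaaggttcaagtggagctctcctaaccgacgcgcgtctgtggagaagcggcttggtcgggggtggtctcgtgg
ANLN (chr7:36389612-36389911, plus strand): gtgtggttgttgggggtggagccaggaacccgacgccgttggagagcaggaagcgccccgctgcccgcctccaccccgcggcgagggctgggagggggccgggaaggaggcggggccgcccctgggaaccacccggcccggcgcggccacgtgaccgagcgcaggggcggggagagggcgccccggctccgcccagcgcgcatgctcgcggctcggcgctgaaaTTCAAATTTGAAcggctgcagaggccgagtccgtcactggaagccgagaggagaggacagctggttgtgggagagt
CCNA2 (chr4:121823834-121824133, minus strand): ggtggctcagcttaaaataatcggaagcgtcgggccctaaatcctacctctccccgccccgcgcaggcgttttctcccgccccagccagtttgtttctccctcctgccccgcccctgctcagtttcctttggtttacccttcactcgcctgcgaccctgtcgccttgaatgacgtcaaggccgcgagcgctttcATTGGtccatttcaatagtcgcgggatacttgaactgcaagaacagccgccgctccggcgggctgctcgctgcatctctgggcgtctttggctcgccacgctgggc
The TOP2A window held 2 matches to TTTGAA and 4 to CCAAT. In ANLN 2 matches to TTTGAA followed each other directly and CCAAT was not found. The CCNA2 window held 1 match to CCAAT and none to TTTGAA. Only these exact letters were searched, so a window without a match may still hold a variant of either motif.

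Upstream of these genes, 16 of 18 regulators of the G1 phase were higher, 1 was lower and 1 was not called, with a median of 1.43. That median lay between 1.34 and 2.70 over the alternatives, the highest with voom on recovered reads. CCND1, cyclin D1, had 81.2 and 70.6 FPKM in BR8, 3.99 and 3.80 FPKM in BLU667 and 104 and 108 FPKM in DMSO (3.97 ± 0.089, limma adjusted p = 8.76e-08). MYBL2, the activator of late cell-cycle genes, had 30.8 and 32.8 FPKM in BR8, 0.532 and 0.394 FPKM in BLU667 and 83.2 and 70.2 FPKM in DMSO (4.49 ± 0.12). Cyclin D1 and MYBL2 in BR8 thus lay far above BLU667 and below both DMSO libraries. E2F1 (3.34 ± 0.13) and the repressor E2F7 (2.99 ± 0.11) rose too, and the pocket protein RBL2†, which holds E2F genes silent in resting cells, fell (-0.29 ± 0.089, adjusted p = 0.0238), a call lost without BR8 replicate 1 (0.102), BR8 replicate 2 (0.0661) or BLU667 replicate 2 (0.135).

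Inhibitors of the cyclin-dependent kinases were split, with 3 of 8 higher, 5 lower and a median of -1.39. CDKN1B, which encodes p27, had 18.7 and 18.0 FPKM in BR8, 74.2 and 77.4 FPKM in BLU667 and 24.4 and 22.3 FPKM in DMSO (-1.99 ± 0.077, limma adjusted p = 5.44e-07). CDKN1C, which encodes p57, had 10.1 and 8.96 FPKM in BR8, 60.7 and 49.2 FPKM in BLU667 and 3.46 and 2.83 FPKM in DMSO (-2.40 ± 0.16). In p57 the BR8 libraries therefore stayed above both DMSO libraries. CDKN2A, the gene of p16 and ARF, had 12.9 and 11.5 FPKM in BR8, against 54.9 and 57.2 FPKM in BLU667 and 57.9 and 47.5 FPKM in DMSO (-2.12 ± 0.13, adjusted p = 4.38e-06). Its 2 parental groups overlapped, and BR8 lay below both of them and below BR16 (25.6 and 26.5 FPKM). The rises were CDKN3 (2.14 ± 0.19), a phosphatase gene that is itself expressed in cycling cells, CDKN2D (0.62 ± 0.17, adjusted p = 0.0125) and CDKN1A, which encodes p21 (0.50 ± 0.13, adjusted p = 0.0106). CDKN2D was not called without BR8 replicate 1 (0.0656) or BLU667 replicate 1 (0.0711, with a change of 0.37), and CDKN1A not without BR8 replicate 1 (0.0721) or BLU667 replicate 2 (0.0637).

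Of 26 listed genes induced by ERK, 18 were members, whereas DUSP4, DUSP6, ETV1, ETV4, FOS, SPRED3, SPRY1 and SPRY4 were not. The members were higher for 10 of 18, lower for 4 and not called for 4 (median 0.53). Against DMSO the median of the same members in BR8 was -0.71. Cyclin D1, above, was the largest rise. FOSL1, an AP-1 subunit, had 18.0 and 16.4 FPKM in BR8, 5.93 and 2.74 FPKM in BLU667 and 221 and 169.8 FPKM in DMSO (1.84 ± 0.26, limma adjusted p = 0.000434). DUSP5, a phosphatase of nuclear ERK, had 18.9 and 17.3 FPKM in BR8, 6.80 and 3.87 FPKM in BLU667 and 21.2 and 19.4 FPKM in DMSO (1.63 ± 0.19). The ETS factor ETV5† had 2.78 and 2.65 FPKM in BR8, 0.176 and 0.218 FPKM in BLU667 and 19.8 and 21.6 FPKM in DMSO (1.63 ± 0.079). So DUSP5 in BR8 stood just under both DMSO libraries, whereas FOSL1 and ETV5 stayed far below theirs. The falls were PHLDA1 (-0.80 ± 0.11), the immediate early gene IER3 (-0.71 ± 0.11), the architectural factor HMGA2 (-0.75 ± 0.13) and the ETS factor ELK3 (-0.58 ± 0.11).

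Outside the cell cycle, the largest rises were in genes that were low in both parental groups. MAL2, a protein of apical membrane traffic (chromosome 8, 119165034 to 119245673), had 137 and 141 FPKM in BR8, 0.629 and 1.22 FPKM in BLU667 and 0.220 and 0.147 FPKM in DMSO (6.20 ± 0.13, limma adjusted p = 7.85e-08). BR10 held 0.992 and 1.08 FPKM and BR16 129 and 127 FPKM. Its neighbour NOV (also CCN3), a secreted matricellular protein (chromosome 8, 119416306 to 119424353), had 61.3 and 58.8 FPKM in BR8 and 0.191 and 0.366 FPKM in BLU667 (5.58 ± 0.089), and it reached 27.1 and 27.8 FPKM in BR10 and 59.9 and 60.9 FPKM in BR16. ALOX5AP, the protein that presents arachidonic acid to 5-lipoxygenase, had 32.0 and 32.2 FPKM in BR8 and 0.563 and 0.268 FPKM in BLU667 (4.55 ± 0.13). RETREG1, a receptor for autophagy of the endoplasmic reticulum, had 17.2 and 15.1 FPKM in BR8 and 0.0373 and 0.0630 FPKM in BLU667 (4.03 ± 0.12). DMSO libraries were at or below 0.472 FPKM for each of these 4 genes, far below both BR8 libraries.

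Among the largest falls, some genes were high in both parental groups and others in BLU667 alone. MT1E, a metallothionein that binds zinc and copper, had 0 reads in both BR8 libraries, as in BR10 and BR16, against 48.7 and 59.5 FPKM in BLU667 and 11.4 and 19.0 FPKM in DMSO. With 3 reads as a floor over the 2 BR8 libraries, it was at least 653-fold lower (limma adjusted p = 3.56e-07). QPRT, an enzyme of NAD synthesis, had 0.469 and 0.489 FPKM in BR8, 56.8 and 62.7 FPKM in BLU667 and 23.5 and 21.9 FPKM in DMSO (-5.36 ± 0.078). SERPINF2, alpha-2-antiplasmin, had 0.242 and 0.228 FPKM in BR8, 35.6 and 47.7 FPKM in BLU667 and 0.230 and 0.242 FPKM in DMSO (-5.09 ± 0.13), so that BR8 and DMSO lay together. The same layout held for the potassium channel KCNJ13† (-4.76 ± 0.11), the folate receptor FOLR1 (-3.89 ± 0.12) and the cytokine LTB (-3.66 ± 0.22). By contrast the retinaldehyde reductase DHRS3 had 0.112 and 0.156 FPKM in BR8, 12.2 and 14.3 FPKM in BLU667 and 14.0 and 10.9 FPKM in DMSO (-3.65 ± 0.13), with both parental groups high. The other large falls were the laminin receptor BCAM (-4.13 ± 0.20), the actin bundler ESPN† (-4.08 ± 0.13), the cation exporter SLC47A2 (-3.85 ± 0.11) and the receptor PDGFRB (-3.69 ± 0.14). Adjusted p of the 12 largest rises and 12 largest falls lay between 2.29e-08 and 3.83e-06.

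**Figure D2:**
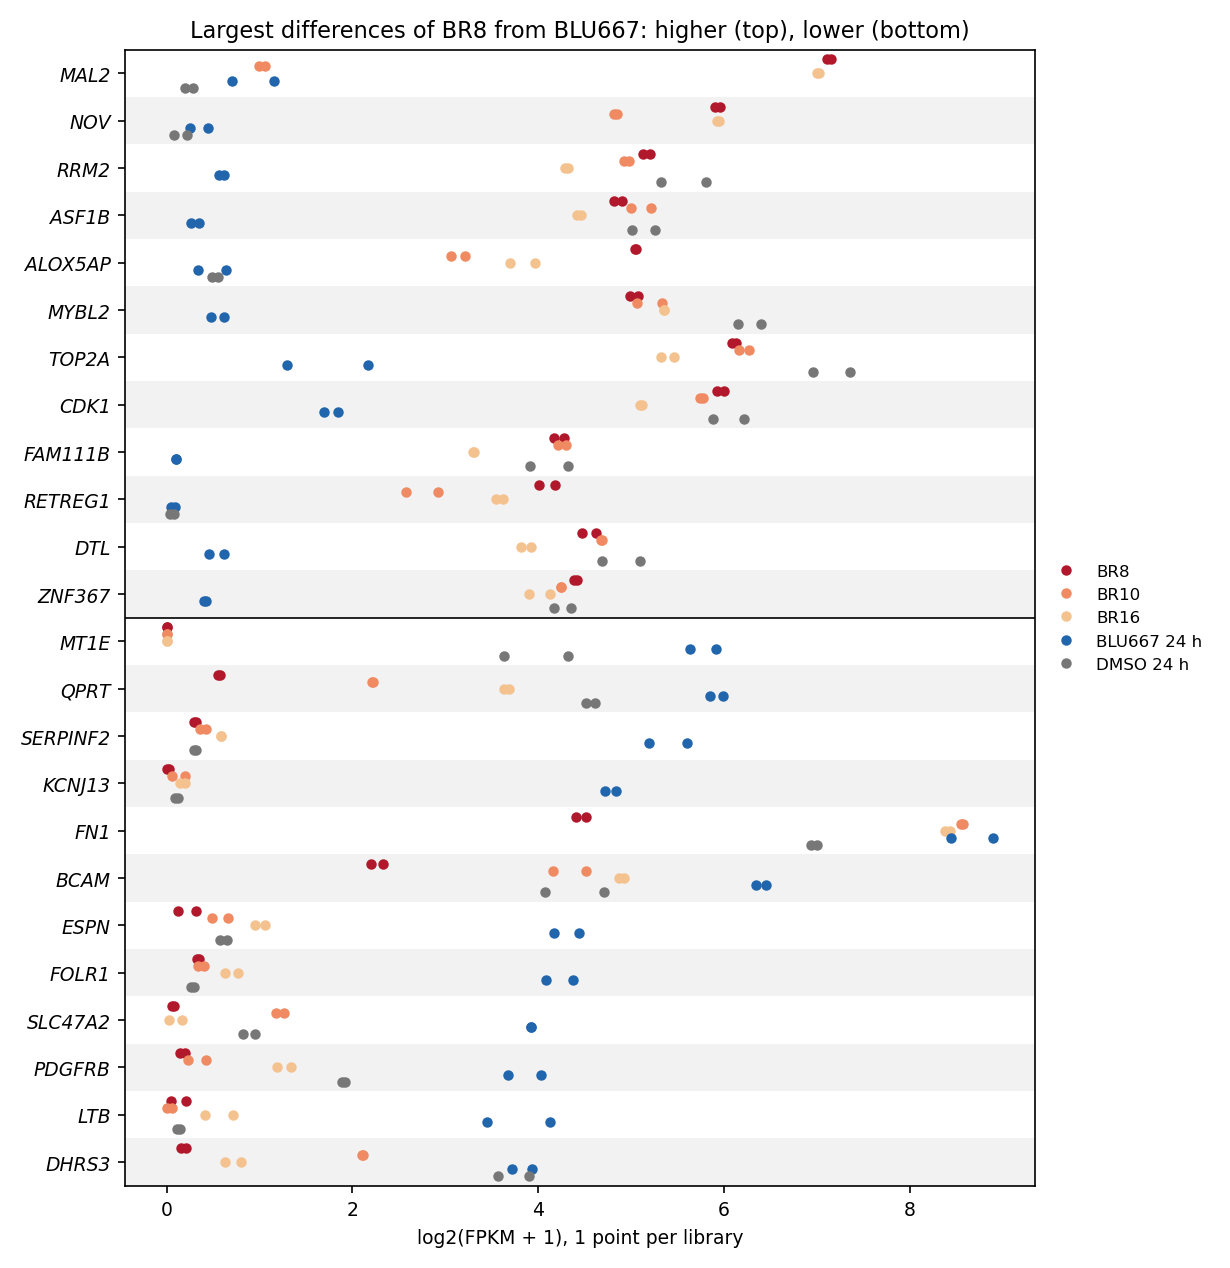
Levels of the 12 largest rises (top) and 12 largest falls (bottom) of BR8 against BLU667, as log2(FPKM + 1) on the horizontal axis with 1 point per library. Cell-cycle genes such as RRM2 and CDK1 are low in BLU667 alone, MAL2, NOV, ALOX5AP and RETREG1 are low in BLU667 and DMSO, and MT1E is at 0 in all 6 colony libraries.

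Receptor tyrosine kinases other than RET, which can carry growth signals in its place, were lower for 12 of 19, higher for 6 and not called for 1 (median -0.80). PDGFRB, a receptor for platelet-derived growth factor, had 0.143 and 0.108 FPKM in BR8, 11.8 and 15.4 FPKM in BLU667 and 2.80 and 2.71 FPKM in DMSO (limma adjusted p = 4.50e-07). FGFR4 (-2.28 ± 0.11), FGFR3 (-1.43 ± 0.14) and EPHA4 (-1.74 ± 0.14) fell as well. EGFR went the other way, with 96.8 and 97.5 FPKM in BR8, 63.1 and 59.1 FPKM in BLU667 and 18.8 and 19.6 FPKM in DMSO (0.66 ± 0.072, adjusted p = 0.000103). The median change of its chromosome 7 window was 0.82. EGFR in BR8 lay above BR10 (49.3 and 51.8 FPKM) and below BR16 (161 and 161 FPKM). ROR1 was the largest rise (1.25 ± 0.087), with 19.9 and 18.7 FPKM in BR8 and 7.95 and 7.16 FPKM in BLU667. FGFR1† rose slightly (0.37 ± 0.082), where the median change of its chromosome 8 window was -0.68. AXL (0.31 ± 0.10), TYRO3 (0.42 ± 0.15) and FGFR2 (0.35 ± 0.13) were called with adjusted p of 0.0268, 0.0388 and 0.0433, calls that were lost under several alternatives. Without BLU667 replicate 1 the change of TYRO3 was 0.24 and that of FGFR2 was 0.21.

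Of 16 growth factor ligands, 7 were higher, 5 lower and 4 not called, with a median of 0.15 that lay between 0.06 and 0.25 over the alternatives. PDGFB had 24.1 and 20.7 FPKM in BR8, 3.41 and 4.15 FPKM in BLU667 and 0.932 and 0.673 FPKM in DMSO (2.29 ± 0.11, limma adjusted p = 1.57e-06). PDGFA had 6.67 and 7.86 FPKM in BR8, 0.999 and 0.984 FPKM in BLU667 and 2.05 and 1.54 FPKM in DMSO (2.05 ± 0.11). Both are ligands of platelet-derived growth factor receptors and were higher in BR8, while PDGFRB and a further ligand, PDGFC, were lower. The EGFR ligands amphiregulin AREG (1.72 ± 0.12) and epiregulin EREG (1.64 ± 0.20) rose. AREG had 3.66 and 3.46 FPKM in BR8 and at most 0.691 FPKM in any library of the other 4 groups. VEGFC (-1.05 ± 0.12), VEGFB (-0.90 ± 0.18), PDGFC (-0.61 ± 0.10), FGF2 (-0.48 ± 0.12) and NRG1 (-0.46 ± 0.093) fell. The median change of the chromosome 8 window that holds NRG1 was -0.68. FGF2 was not called without BR8 replicate 2 (0.0727) or BLU667 replicate 1 (0.0668).

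In the pathway of interleukin 6, JAK kinases and STAT factors, 8 of 17 genes were higher, 4 lower and 5 not called (median 0.33, between 0.20 and 0.33 over the alternatives). IL6 itself had 30.3 and 32.8 FPKM in BR8, 3.51 and 2.17 FPKM in BLU667 and 0.860 and 0.764 FPKM in DMSO (3.10 ± 0.16, limma adjusted p = 1.73e-06). The median change of the window around it on chromosome 7 was 0.84. Its level in BR8 also lay above BR10 (11.1 and 11.8 FPKM) and BR16 (22.3 and 19.2 FPKM). IL11, a cytokine of the same family, rose (1.59 ± 0.13). The receptor LIFR (-1.41 ± 0.12), STAT2 (-0.87 ± 0.10), STAT5B (-1.01 ± 0.10) and the kinase PIM1 (-1.02 ± 0.12) fell.

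Among NF-kB targets and chemokines, 7 of 15 were higher, 1 lower and 7 not called (median 0.28, between 0.04 and 0.53 over the alternatives, both ends from leaving out 1 BLU667 library). ICAM1, an adhesion receptor for leukocytes, had 8.66 and 7.78 FPKM in BR8, 0.307 and 0.140 FPKM in BLU667 and 0.364 and 0.171 FPKM in DMSO (2.92 ± 0.13, limma adjusted p = 1.09e-06). The chemokine CXCL8 had 48.2 and 50.0 FPKM in BR8, 18.2 and 7.82 FPKM in BLU667 and 3.79 and 5.90 FPKM in DMSO (1.94 ± 0.32). The growth factor CSF2 (1.66 ± 0.24) and the apoptosis inhibitor BIRC3 (1.23 ± 0.23) rose, BIRC3 by 0.79 without BLU667 replicate 2. NFKBIA, the inhibitor of NF-kB, was called lower (-0.39 ± 0.14, adjusted p = 0.0397), which was lost without BR8 replicate 1 (0.155), BR8 replicate 2 (0.0829) or BLU667 replicate 1 (0.242). Its change was -0.23 without BLU667 replicate 1.

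Interferon-stimulated genes moved both ways, 5 of 14 higher, 4 lower and 5 not called (median 0.19, between 0.10 and 0.32 over the alternatives). OAS3, a sensor of double-stranded RNA, had 12.5 and 12.4 FPKM in BR8 and 4.25 and 3.61 FPKM in BLU667 (1.45 ± 0.095), and IFIT3 rose (1.40 ± 0.12). IFI44L had 0.0111 and 0.0116 FPKM in BR8, 2.64 and 2.42 FPKM in BLU667 and 0.479 and 0.451 FPKM in DMSO (-1.80 ± 0.13, limma adjusted p = 1.00e-05), and IFIT1 (-1.21 ± 0.088) and the RNA sensor DDX58 (-0.90 ± 0.13) fell with it. In antigen presentation by MHC class I, 9 of 16 genes were higher, 2 lower and 5 not called (median 0.39). The heavy chain HLA-B† had 137 and 131 FPKM in BR8, 38.7 and 48.0 FPKM in BLU667 and 27.3 and 22.5 FPKM in DMSO (1.61 ± 0.12). The peptide transporter TAP2 (1.20 ± 0.12), the immunoproteasome subunit PSMB9† (0.98 ± 0.17) and the trimming peptidase ERAP1† (0.96 ± 0.075) rose. The class I transactivator NLRC5 (-0.55 ± 0.13) and HLA-E (-0.38 ± 0.10) were called lower. NLRC5 was not called without BLU667 replicate 1 (0.0504), nor HLA-E without BR8 replicate 1 (0.0552) or BLU667 replicate 2 (0.0709).

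Integrins, the receptors that hold cells to matrix, were higher for 9 of 11, lower for 1 and not called for 1 (median 1.11). ITGA3 had 96.7 and 88.5 FPKM in BR8, 18.2 and 14.3 FPKM in BLU667 and 152 and 114 FPKM in DMSO (2.45 ± 0.16, limma adjusted p = 6.63e-06). ITGB8 (1.96 ± 0.15) and ITGB3 (1.92 ± 0.15) rose, and ITGA1† fell (-1.38 ± 0.10). Among 24 matrix genes 7 were higher, 8 lower and 9 not called, with a median of -0.04 that changed sign among the alternatives (between -0.20 and 0.09). FN1, fibronectin (chromosome 2, 215360440 to 215436172, minus strand), had 20.3 and 21.9 FPKM in BR8, 348 and 477 FPKM in BLU667 and 121 and 127 FPKM in DMSO (-4.21 ± 0.13, adjusted p = 2.92e-07). BR10 and BR16 stood with BLU667, at 375 and 380.3 FPKM in BR10 and 345 and 331 FPKM in BR16. LAMB3, a laminin chain, had 125 and 114 FPKM in BR8, 26.3 and 24.8 FPKM in BLU667 and 179 and 133 FPKM in DMSO (2.18 ± 0.14). Tenascin C, TNC (1.29 ± 0.19), COL7A1 (1.13 ± 0.13), thrombospondin THBS1 (0.79 ± 0.10) and COL4A1 (0.70 ± 0.078) were also higher, whereas the fibrillar collagen COL5A2 was lower (-1.77 ± 0.093).

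Among 11 members of a list named mesenchymal there were 3 rises and 6 falls, and 2 were not called (median -0.38). The list was chosen with earlier results of these data known. Its highest change was that of CADM1, an adhesion molecule, which by itself does not mark a mesenchymal state. The transcription factor SNAI1 had 1.72 and 1.58 FPKM in BR8, 24.4 and 20.3 FPKM in BLU667 and 7.64 and 8.33 FPKM in DMSO (-3.13 ± 0.13, limma adjusted p = 7.15e-07), and its relative SNAI2 rose (0.79 ± 0.13). TGFBI, a matrix protein induced by TGF-beta, had 50.5 and 55.5 FPKM in BR8, 1.95 and 4.62 FPKM in BLU667 and 2.01 and 2.30 FPKM in DMSO (3.73 ± 0.24). The adhesion molecule CADM1 had 15.4 and 16.9 FPKM in BR8, 0.0928 and 0.183 FPKM in BLU667 and 0.0196 and 0.0689 FPKM in DMSO (3.91 ± 0.085). Of the 6 epithelial members among 17 listed genes, 4 were higher and 2 lower (median 0.51, between 0.47 and 0.87 over the alternatives). The claudin CLDN1 (2.13 ± 0.24) and keratin KRT18† (1.21 ± 0.14) rose, and the junction scaffolds TJP1 (-1.39 ± 0.10) and TJP3 (-0.99 ± 0.16) fell.

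In the TGF-beta list 8 of 16 genes were higher, 6 lower and 2 not called (median 0.25, between 0.16 and 0.30 over the alternatives). The ligands fell. TGFB1† had 24.5 and 23.1 FPKM in BR8, 172 and 124 FPKM in BLU667 and 42.5 and 32.8 FPKM in DMSO (-2.57 ± 0.17, limma adjusted p = 7.77e-06), and TGFB2 (-1.83 ± 0.10) and TGFB3 (-0.95 ± 0.15) were lower too, with the receptor TGFBR2 (-1.001 ± 0.079). The target PMEPA1, a feedback inhibitor of the pathway, had 71.7 and 77.8 FPKM in BR8, 13.2 and 26.5 FPKM in BLU667 and 9.89 and 8.89 FPKM in DMSO (1.94 ± 0.25), so that it rose. YAP and TAZ targets were split evenly, 7 higher, 7 lower and 3 not called (median 0.27, between 0.05 and 0.31 over the alternatives). Tissue factor F3 (2.59 ± 0.12) and WWC1 (1.25 ± 0.082) rose where the membrane repair protein MYOF fell (-1.75 ± 0.088). Of 13 proteases and inhibitors, 7 were higher, 5 lower and 1 not called (median 0.51), with the gelatinase MMP2 (-2.25 ± 0.10), its activator MMP14 (-1.24 ± 0.18) and TIMP2 (-1.92 ± 0.07) all lower.

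Hedgehog genes were lower for 4 of 5 and higher for 1 (median -0.71, between -1.41 and -0.68 over the alternatives). SMO, the signal transducer of the pathway, had 3.42 and 3.08 FPKM in BR8, 18.0 and 19.1 FPKM in BLU667 and 11.1 and 9.30 FPKM in DMSO (-2.20 ± 0.10, limma adjusted p = 9.14e-07). SMO lies in a window of chromosome 7 with a median change of -0.82, and GLI3 in one with 0.82. The inhibitor SUFU (-1.24 ± 0.10) and the factor GLI3 (-0.71 ± 0.086) fell, and GLI2 rose (0.78 ± 0.11). The 10 Notch genes showed 4 rises and 4 falls, and 2 were not called (median 0.03, between -0.14 and 0.51), with the ligand JAG2 higher (1.23 ± 0.13) and NOTCH3 (-0.67 ± 0.12) and the feedback gene NRARP (-0.78 ± 0.11) lower. The 10 Wnt genes showed 4 rises and 3 falls, and 3 were not called (median 0.25, between -0.10 and 0.38), with WNT7B higher (1.63 ± 0.16) and the receptor LGR4 lower (-0.84 ± 0.10). The medians of Notch and Wnt changed sign among the alternatives.

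Genes induced by FOXO factors, which act when phosphoinositide 3-kinase is low, were lower for 11 of 14, higher for 2 and not called for 1 (median -0.79). Besides p27 these included the atypical cyclin CCNG2, with 10.4 and 11.8 FPKM in BR8, 29.5 and 36.4 FPKM in BLU667 and 6.21 and 7.36 FPKM in DMSO (-1.48 ± 0.12, limma adjusted p = 2.51e-05), and the insulin receptor substrate IRS2 (-1.36 ± 0.11). KLF4 rose, with 10.1 and 9.28 FPKM in BR8 and 1.82 and 1.57 FPKM in BLU667 (1.99 ± 0.088). The 17 p53 targets showed 6 rises and 6 falls, and 5 were not called (median 0.09, between 0.05 and 0.23 over the alternatives), among them TP53INP1 (-2.04 ± 0.12) and GDF15 (-1.49 ± 0.19) lower and the death receptor FAS† (1.503 ± 0.16) and repair factor DDB2 (1.34 ± 0.092) higher.

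BCL2 family genes, which decide whether mitochondria release the signals of cell death, were higher for 6 of 14, lower for 3 and not called for 5 (median 0.25, between 0.12 and 0.39 over the alternatives). The BH3-only gene BMF had 0.815 and 0.828 FPKM in BR8, 16.3 and 23.5 FPKM in BLU667 and 0.188 and 0.104 FPKM in DMSO (-3.50 ± 0.16, limma adjusted p = 1.32e-06). BCL2L11†, which encodes BIM, had 2.78 and 2.68 FPKM in BR8, 8.48 and 8.35 FPKM in BLU667 and 1.97 and 2.07 FPKM in DMSO (-1.34 ± 0.094). For both genes BR8 lay below BLU667 and above both DMSO libraries. The BH3-only genes BIK (2.60 ± 0.25) and PMAIP1, which encodes NOXA (1.59 ± 0.15), went up. The survival gene BCL2A1 had 3.97 and 4.74 FPKM in BR8 and 0 reads in both BLU667 libraries, at least 55.3-fold higher with a floor of 3 reads over the 2 BLU667 libraries (adjusted p = 1.67e-05).

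Glycolytic and hypoxia-inducible genes were higher for 15 of 21, lower for 4 and not called for 2 (median 0.70). The kinase PGK1† had 125 and 119 FPKM in BR8, 36.9 and 43.2 FPKM in BLU667 and 148 and 140.4 FPKM in DMSO (1.58 ± 0.09, limma adjusted p = 3.25e-06). Enolase ENO2 (1.40 ± 0.15), TPI1 (1.22 ± 0.15) and phosphofructokinase PFKP (1.20 ± 0.13) rose, and the regulatory kinase PFKFB3 (-1.02 ± 0.12) and the mutase PGAM1 (-0.61 ± 0.10) fell. GAPDH was called slightly lower (-0.26 ± 0.084, adjusted p = 0.0284), a direction that turned under quantile normalization (0.19, adjusted p = 0.0506). Stress genes under ATF4 were higher for 12 of 23, lower for 4 and not called for 7 (median 0.39, between 0.19 and 0.48 over the alternatives). The folate enzyme MTHFD2 had 48.7 and 45.9 FPKM in BR8, 7.96 and 7.89 FPKM in BLU667 and 52.4 and 65.1 FPKM in DMSO (2.44 ± 0.10), the glutathione-degrading CHAC1 rose (1.90 ± 0.19), and the endoplasmic reticulum protein HERPUD1 (-2.07 ± 0.071) and the mTOR inhibitor DDIT4 (-2.19 ± 0.34) fell.

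Ribosome biogenesis genes were higher for 17 of 21, lower for 0 and not called for 4 (median 0.70), led by the nucleolar chaperone NOLC1 (1.60 ± 0.082). Ribosomal protein genes themselves were lower for 15 of 30, higher for 0 and not called for 15 (median -0.37), among them RPL10 (-0.89 ± 0.16) and RPS9 (-0.83 ± 0.11). Of 13 transcripts encoded by mitochondrial DNA, 10 were lower and 3 not called (median -0.76). MT-ND1 had 1053 and 665 FPKM in BR8 and 3655 and 2028 FPKM in BLU667 (-1.70 ± 0.30, limma adjusted p = 0.00147), and the replicates of both groups differed widely. That list's median was -0.40 without BLU667 replicate 1, the library with 6.49% mitochondrial reads, and -0.28 under quantile normalization. Nuclear genes of the respiratory chain were 10 higher, 2 lower and 14 not called (median 0.20, between 0.08 and 0.32 over the alternatives).

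The 19 genes of sterol synthesis showed 3 rises and 5 falls, and 11 were not called (median -0.19, between -0.23 and -0.04 over the alternatives), with their regulator SREBF2 lower (-1.18 ± 0.13). The 22 genes of lysosomes and autophagy showed 5 rises and 5 falls, and 12 were not called (median -0.04, which changed sign, between -0.09 and 0.05). ABC exporters, which pump lipids and drugs out of cells, were 2 higher, 4 lower and 1 not called (median -0.26), with ABCC4 lower (-0.85 ± 0.10). A list of tubule-like transport genes, proposed from these very libraries, was 3 higher, 7 lower and 3 not called (median -0.90, between -1.54 and -0.68), and its direction is therefore no independent evidence. CD24, a surface glycoprotein on that list, had 243 and 242 FPKM in BR8, 1129 and 1169.8 FPKM in BLU667 and 66.7 and 69.4 FPKM in DMSO (-2.24 ± 0.082, limma adjusted p = 4.42e-07), so that BR8 lay between the parental groups. The phosphate transporter SLC17A3 rose (1.37 ± 0.12). Of the thyroid genes, HHEX (1.01 ± 0.10), FOXE1 (0.68 ± 0.11) and PAX8† (0.64 ± 0.16) rose and GLIS3 fell (-1.06 ± 0.067), PAX8 not being called without BLU667 replicate 2 (0.0616). The median change of the chromosome 2 window that holds PAX8 was 0.63, with 21 of 33 genes called higher. In the same window the median of BR8 was -0.08 against BR10, 0.23 against BR16 and -0.04 against DMSO. Of 9 markers of thyroid C cells the glycolytic ENO2 alone was a member. Of 7 squamous markers 1 was a member. This gene, SFN, an inhibitor of the cell cycle, had 11.5 and 9.31 FPKM in BR8 and 0 reads in both BLU667 libraries (0.735 and 0.575 FPKM in DMSO), at least 161-fold higher with a floor of 3 reads over the 2 BLU667 libraries, whereas KRT14, KRT6A, DSG3 and SPRR1B were at 0 in all 4 libraries.

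**Figure D3:**
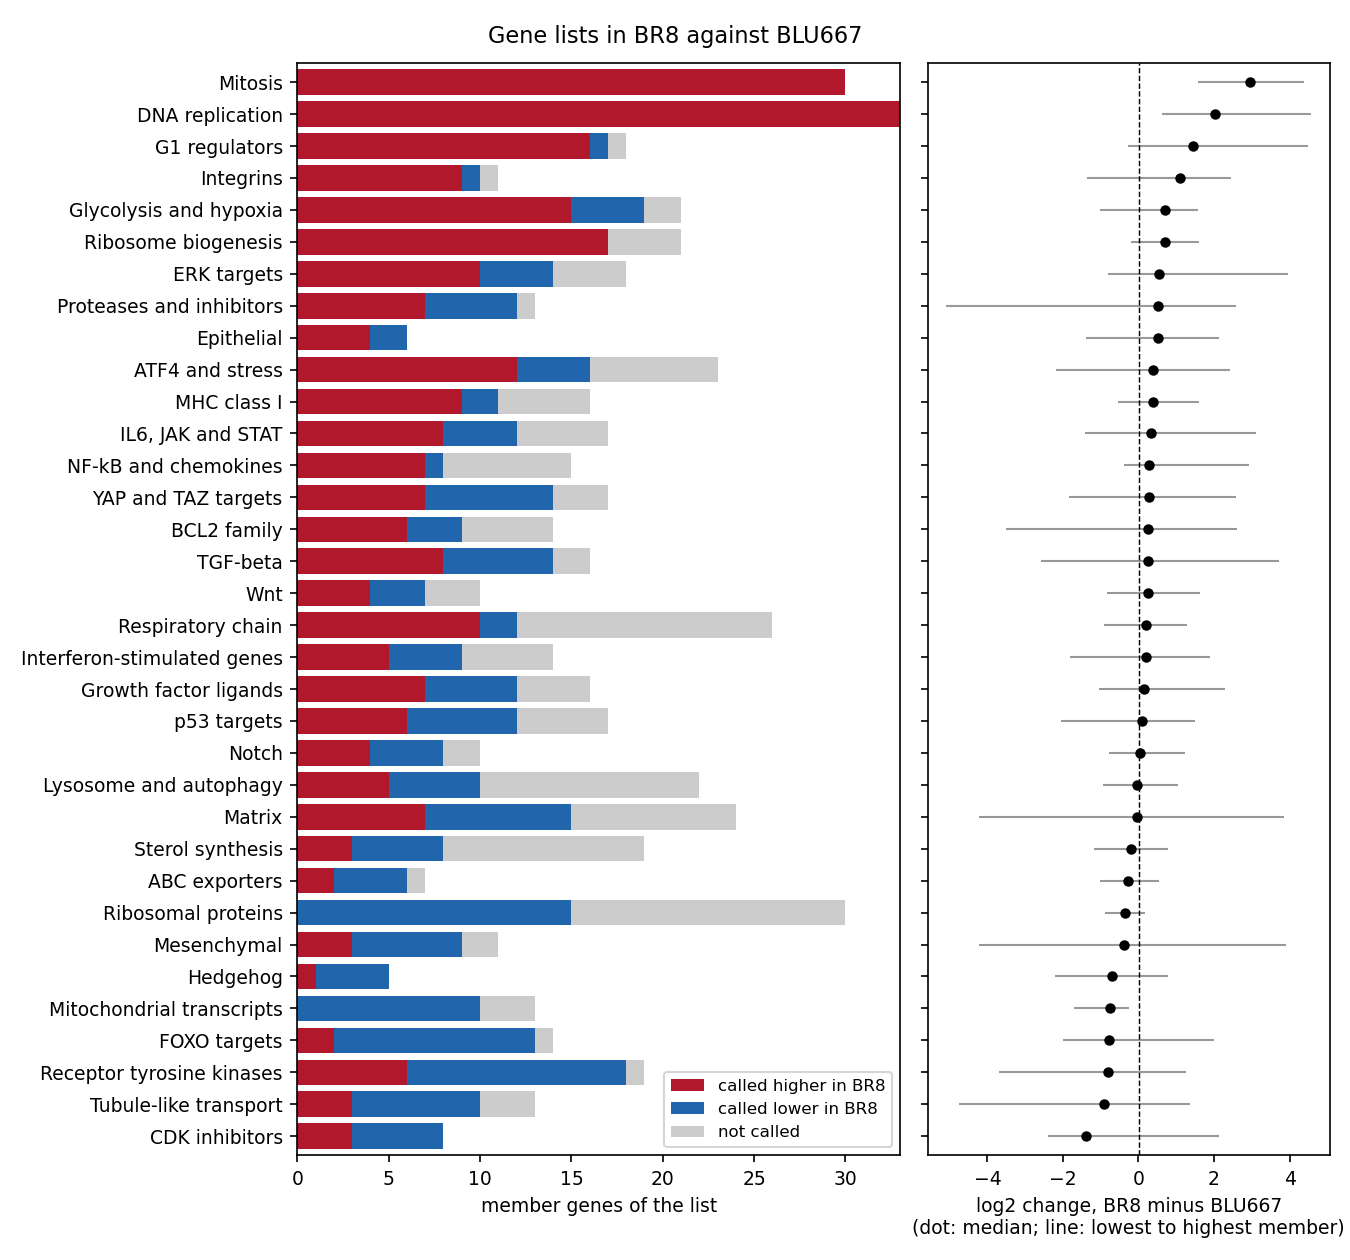
For 34 gene lists, ordered by median, the left panel gives the number of member genes called higher in BR8 (red), called lower (blue) and not called (grey), and the right panel the median (dot) and the lowest and highest member (line) of the log2 change BR8 minus BLU667, with the median of all members dashed. Mitosis (median 2.96) and DNA replication (2.04) stand at the top with every member called higher, and CDK inhibitors (-1.39) at the bottom.

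How far BR8 stands for the other colonies was asked in 2 further contrasts of the same fit. Against BR10, 3023 members (23.6%) were called, 1561 higher (12.2%) and 1462 lower (11.4%) in BR8, and 1764, 1990, 1924 and 1734 without BR8 replicate 1, BR8 replicate 2, BR10 replicate 1 and BR10 replicate 2. Against BR16, 6479 (50.6%) were called, 3334 higher (26.1%) and 3145 lower (24.6%), and 4759 once the GC trend of each library had been removed. Without 1 library the count was 4313 (BR8 replicate 2), 4187 (BR16 replicate 1) or 3835 (BR16 replicate 2). Called against BR10, BR16 and BLU667 in the same direction were 1244 members (9.72%), 678 higher (5.3%) and 566 lower (4.42%). The medians of the cell-cycle lists in BR8 were -0.09 for replication and -0.16 for mitosis against BR10, and 0.56 for replication and 0.38 for mitosis against BR16. These medians and the 1244 members were taken without removal of the GC trend. Since BR8 minus BR16 followed GC content strongly (Spearman rho -0.606), the values against BR16 may carry that trend, which was not tested for them.

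Above both other colonies stood a matrix proteoglycan, LUM (lumican), with 4.61 and 6.43 FPKM in BR8, 0.246 and 0.363 FPKM in BLU667, 0.123 and 0.0440 FPKM in BR10 and 0.0819 and 0 FPKM in BR16, and 0 in both DMSO libraries. LUM is a fibroblast marker. Of 10 listed fibroblast markers 4 were members, with LUM called higher, 2 lower and 1 not called. COL1A2, COL3A1, DCN and FAP were at 0 in all 4 libraries of BR8 and BLU667. The 10 listed markers summed to 7.75 and 9.74 FPKM in BR8 and 24.8 and 28.4 FPKM in BLU667. That sum includes PDGFRB, described above, which was the largest fall of the list (-3.69). Which cells the LUM reads came from was not tested. ANXA8L1, an annexin with near-identical copies, had 10.7 and 17.2 FPKM in BR8 and 0.119 and 0.322 FPKM in BLU667. TENM2, a teneurin adhesion protein, had 12.2 and 14.1 FPKM in BR8, 0.592 and 0.693 FPKM in BLU667, 0.00560 and 0.00399 FPKM in BR10 and 4.52 and 4.72 FPKM in BR16. ICAM1 and TGFBI, described above, lay above both other colonies as well. BR16 was second highest for ANXA8L1, TENM2, ICAM1 and TGFBI.

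Below both other colonies, FN1 differed most (-4.10 ± 0.13 against BR10 and -3.94 ± 0.13 against BR16). LRRC61†, a leucine-rich repeat gene on chromosome 7, had 0 reads in both BR8 libraries, against 8.14 and 8.12 FPKM in BLU667, 5.43 and 7.24 FPKM in BR10 and 17.4 and 16.7 FPKM in BR16, at least 255-fold below BLU667 with a floor of 3 reads over the 2 BR8 libraries. VAMP8, a SNARE of vesicle fusion, had 0.115 and 0.2998 FPKM in BR8, 2.53 and 2.79 FPKM in BLU667, 11.6 and 11.3 FPKM in BR10 and 5.91 and 6.55 FPKM in BR16. The keratin KRT81 had 0.826 and 0.554 FPKM in BR8, 9.93 and 7.37 FPKM in BLU667 and 82.6 and 65.1 FPKM in DMSO. QPRT and BCAM, described above, were lowest in BR8 of all 5 groups.

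**Figure D4:**
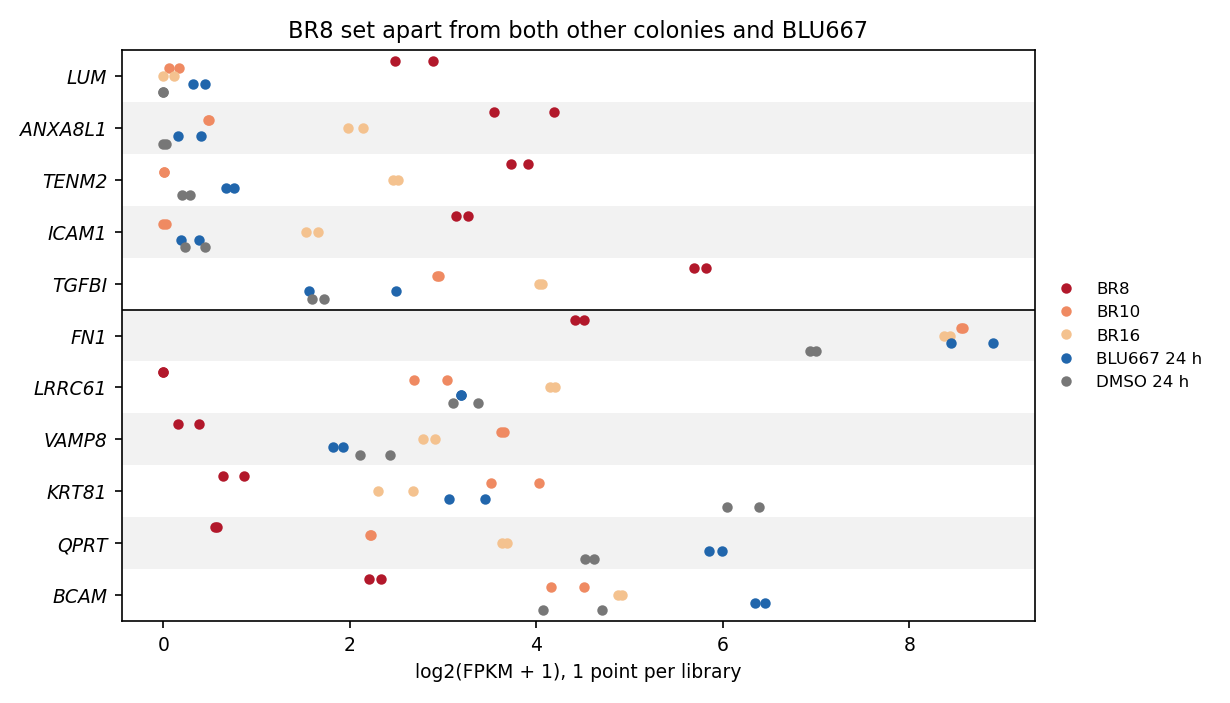
Levels of 5 genes high (top) and 6 low (bottom) in BR8 relative to the mean of BR10 and BR16, as log2(FPKM + 1) with 1 point per library. Both BR8 libraries lie outside the range of all other 8 libraries for each of these 11 genes, and FN1 in BR8 lies below DMSO while BR10 and BR16 lie with BLU667.

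Of the 11 genes set apart from the other colonies, LRRC61 lay in a stretch of chromosome where most genes were lower in BR8. Several genes described earlier, among them IL6, EGFR and SMO, also lay in stretches where most genes moved one way. Members with a mean level of at least 5 FPKM were placed in windows of 20 Mb (GRCh38), which gave 138 windows with at least 20 genes and 7007 genes in all, of which 38.9% were called higher and 26.9% lower. The windows below were picked after their values had been seen and carry no test. In 3 windows the median log2 difference of BR8 exceeded 0.5 against each of BLU667, BR10 and BR16. All 3 were on chromosome 7, from 20 to 80 Mb. The window before them, from 0 to 20 Mb, missed that limit against BR10 only (0.49). With the GC trend removed, its medians were 0.80, 0.52 and 0.76 against BLU667, BR10 and BR16. In the window from 60 to 80 Mb, which holds RFC2, the median was 1.04 over 38 genes, with 22 called higher and 13 lower. Relative to DMSO it was 0.98 and 0.89 in the 2 BR8 libraries, against -0.19 and -0.16 in the 2 BLU667 libraries. The window from 20 to 40 Mb, which holds IL6, ITGB8 and ANLN, had 28 of 38 genes called higher (median 0.84), the one from 40 to 60 Mb, which holds EGFR, 25 of 33 (0.82), and the one from 0 to 20 Mb, which holds PDGFA and NDUFA4, 27 of 40 (0.79).

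In 3 other windows the median lay below -0.5 in all 3 comparisons. On chromosome 7 from 120 to 140 Mb, where SMO lies, 30 of 39 genes were called lower (median -0.82), and from 140 to 160 Mb, where LRRC61 lies, 24 of 33 (-0.72). On chromosome 2 from 220 to 240 Mb, where KCNJ13 and EPHA4 lie, 26 of 36 were called lower (-0.78). FN1 lies in the window before that, from 200 to 220 Mb, whose median was -0.14. Chromosome 17 from 60 to 80 Mb had 66 of 92 genes called higher, though TIMP2 there fell. The median of this window was 0.65 against BLU667, 0.52 against BR10 and 0.28 against BR16. From 80 to 100 Mb of chromosome 17, 27 of 38 genes were called higher than in BLU667 and 4 lower. The median there was 0.67 against BLU667 and 0.57 against BR10. Against BR16 it was -0.08, and 0.49 with the GC trend removed. Chromosome 8 from 20 to 40 Mb had 31 of 46 called lower than in BLU667 (-0.68), but its medians were -0.09 against BR10 and 0.05 against BR16, so that there the 3 colonies lay together. From 140 to 160 Mb of chromosome 8, 24 of 45 genes were called lower than in BLU667 (median -0.64, and -0.35 with the GC trend removed). The median there was -0.06 against BR10, and against BR16 it was -0.83 with 39 of 45 called lower, but -0.07 with the GC trend removed. With the GC trend of each library removed, these medians against BLU667 kept their sign. IL6 (3.10), RFC2 (3.61) and SMO (-2.20) changed by more than the median of their windows, and EGFR (0.66) by less. How far position bears on single genes was not tested.

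**Figure D5:**
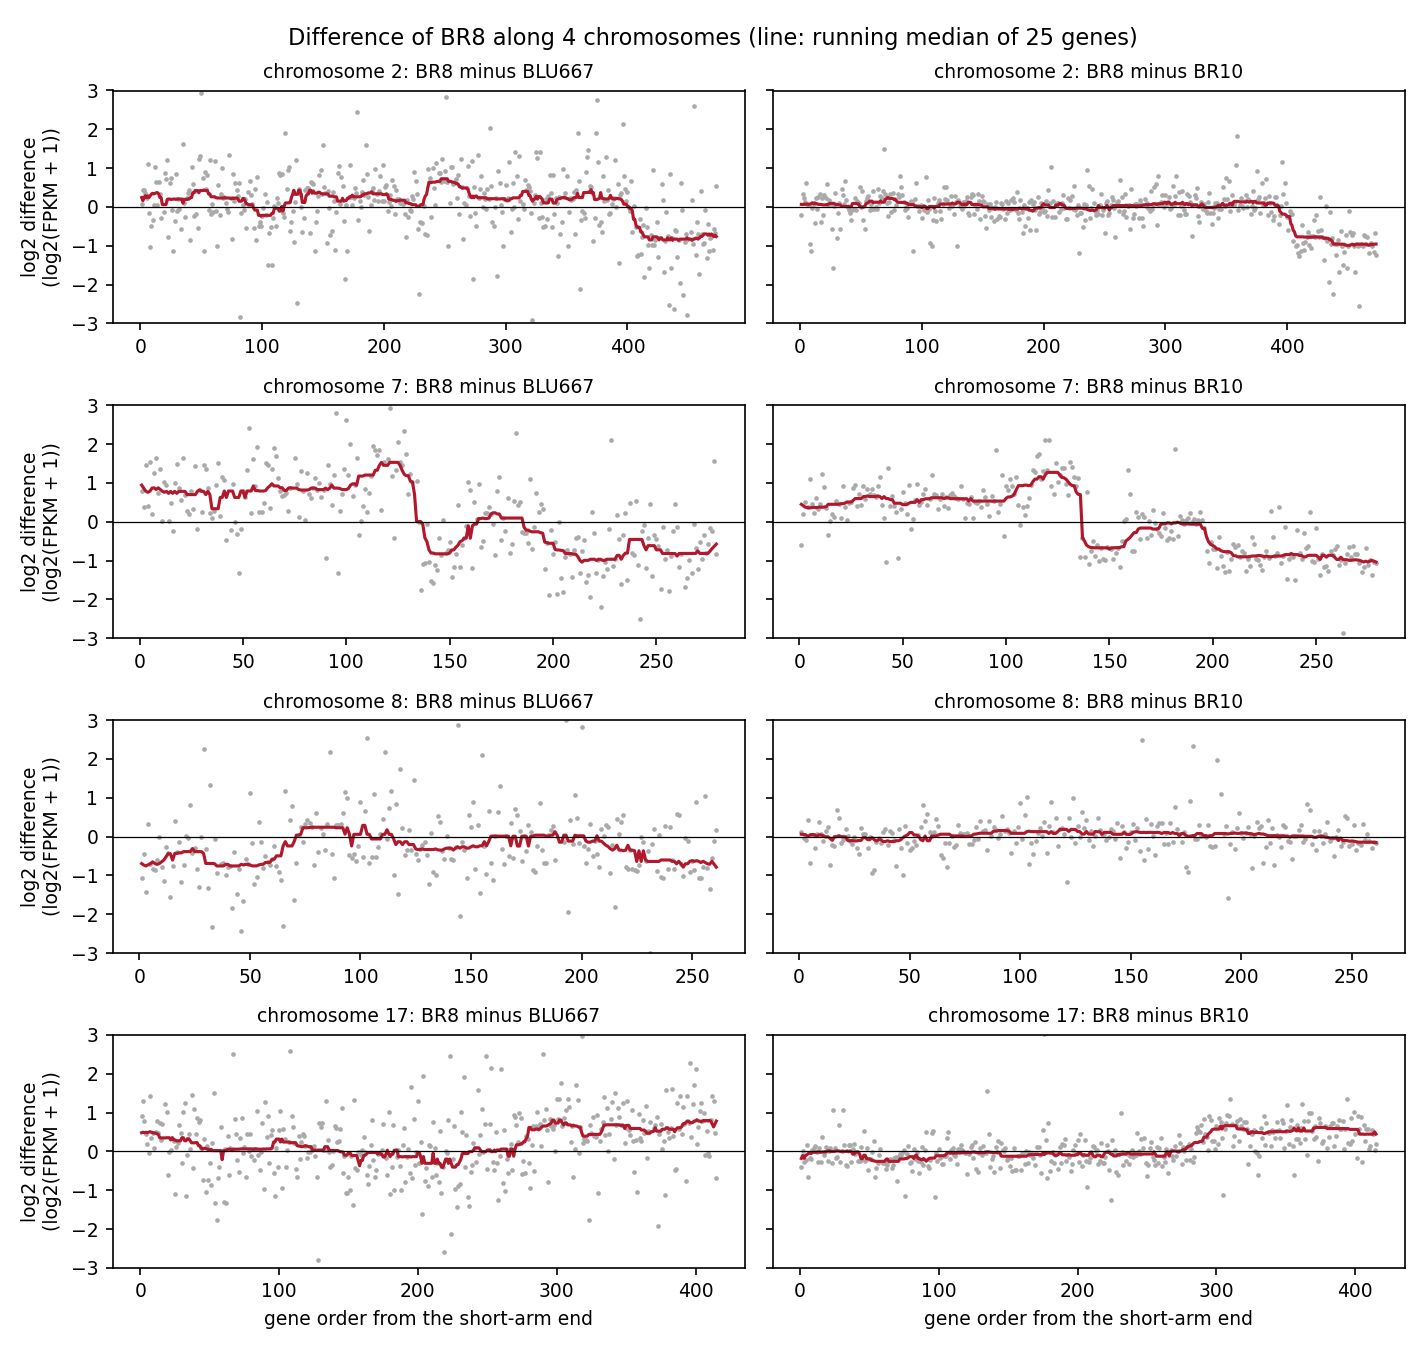
Log2 difference of BR8 from BLU667 (left) and from BR10 (right) for members of mean level at least 5 FPKM along chromosomes 2, 7, 8 and 17, with genes in their order from the short-arm end on the horizontal axis, 1 grey point per gene (points beyond 3 in either direction lie outside the axes) and a running median over 25 genes in red. The line lies above 0 over the first part of chromosome 7 and below 0 over its last part and the last part of chromosome 2 in both panels, and it dips at both ends of chromosome 8 in the left panel.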

How the data were processed

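The data are RNA-seq of 10 libraries, made from RNA treated with GlobinClear and without keeping strand, per the labels. CASAVA for base calls, STAR 2.5, HTSeq 0.6.1, DESeq2 (version given as 2) and the build GRCh38 are named in the submitters' processing notes, and other settings are not given in the sources used here. Values deposited by the authors are FPKM for 58735 genes. Scaled by gene length and depth, 100% of the values came out as whole reads (tolerance 0.05), which served voom.

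Levels were taken as log2(FPKM + 1). Genes with at least 1 FPKM in 2 or more of the 10 libraries (13927) entered limma 3.58.1 (R 4.3.3), 1 fit of all 5 groups with eBayes variance trend, and p-values were adjusted over these genes by the Benjamini-Hochberg method. The members and the 41 gene lists were chosen with earlier results of these data known. The genes named are RET, CCDC6, TERT and CDKN2A; the 12 largest rises and 12 largest falls among called protein-coding members of at least 1 FPKM on average in either group whose libraries do not overlap; up to 4 called genes per list, with genes that go against their list; the 6 largest differences each way from BR10 and BR16; and 1 gene on each side of the filter. Some are given only as counts, and some are not reported here. A gene counted as overlapping where its partner held at least 5% of its reads. GENCODE 29 gave the coordinates. Python 3.11.15, pandas 2.3.3 and matplotlib 3.10.9 were used. The alternatives were pseudocounts of 0.1 and 0.25, filters, scalings, a replicate block, no variance trend, the 4 libraries alone, a fold limit, voom, subtraction of a loess GC curve per library (span 0.3) and each library left out; lone libraries were then assumed to vary like the other groups. The fit was checked on simulated data of 12418 genes. There 60 of 91 genes changed 2-fold and 82 of 85 changed 4-fold were called in the right direction, with 7 false calls. The simulated spread was set by assumption, and far fewer genes were changed than were called in the real data. Recovery in the real data may therefore differ.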

Additional observations from a re-analysis of the deposited data

Results flagged for a closer look

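For 11 genes the level in BR8 stood apart from the mean of BR10 and BR16, which had grown in the same drug. They are among the largest differences each way of protein-coding members called against BR10, against BR16 and, in the same direction, against BLU667. Since they were picked for that difference, its values are a description with no test. The log2 difference of BR8 from the mean of the other colonies, with its SE in the limma fit, was 2.61 ± 0.14 for LUM, 2.59 ± 0.17 for ANXA8L1, 2.57 ± 0.089 for TENM2, 2.40 ± 0.11 for ICAM1 and 2.26 ± 0.21 for TGFBI. Lower in BR8 were FN1 at -4.02 ± 0.12, LRRC61† at -3.52 ± 0.11, VAMP8 at -2.98 ± 0.11, KRT81 at -2.38 ± 0.19, QPRT at -2.37 ± 0.068 and BCAM at -2.35 ± 0.17. LRRC61 had 0 reads in both BR8 libraries, so that its value depends on the added 1 FPKM.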

How the results depend on the processing

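Over the alternatives run, the count of members called between BR8 and BLU667 stayed within 1.5 times of 7794, from 5657 with a filter of 5 FPKM to 8446 with the GC trend removed, except for 2412 with an absolute log2 change of at least 1. With any 1 library left out it ran from 6484 to 6704. The higher and lower calls were 3881 and 4011 under quantile normalization. Against BR10, 3023 became 518 with the fold limit, and 1734 to 1990 with a library left out. Against BR16, 6479 became 1088 with the fold limit, of which 262 were higher and 826 lower (24.1% higher, against 51.5% without the limit), and 3835 to 4711 with a library left out. Of the 417 calls in the gene lists, 221 were of at least 2-fold, and 365 to 392 calls were made with a library left out.

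Replicate numbers share no stated batch, and the main fit did not pair them. Deviations of same-numbered BR8 and BLU667 libraries correlated at 0.109 across genes. With only 2 pairs of libraries, this value cannot decide whether the numbers pair the samples. A fit with the replicate block gave 7575 calls between BR8 and BLU667, 2684 against BR10, 6068 against BR16 and 408 in the gene lists, and under it NFKBIA (adjusted p = 0.0556) and TYRO3 (0.0531) were not called.

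Of 3418 alternative values for 229 named results, 3330 kept direction and side of the threshold, 84 lost the call, 3 gained it and 1 turned, GAPDH at 0.19 under quantile normalization. The cause of that turn was not tested. With a pseudocount of 0.1, 45 of 229 values moved by over 1.5 times, since it adds less to low genes. With 2 libraries per group the spread rests on few values, and genes of few reads are the least certain.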
